A study of Mus musculus with 9 samples.

Results

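Nuclear receptors are transcription factors that are switched on by small lipid-soluble molecules such as steroid hormones, thyroid hormone, retinoic acid and fatty acids, or that act as orphans with no known hormone. Members were the 45 autosomal nuclear receptor genes named by symbol, all found in the mouse annotation GENCODE M21 (build mm10, GRCm38). Each differentially methylated region (DMR) that overlapped the gene body by at least 1 bp, or lay within 10 kb of it, was counted for that gene. This gave 38 of the 12949 listed DMRs, in 17 of the 45 genes, and no DMR was shared by a pair of members.

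DNA methylation was measured in the hypothalamus of male C57/Bl6 mouse pups on postnatal day 6. The MMS group underwent modified maternal separation on days 4 to 6, a daily 1.5 h without the dam combined with enforced lying on the back. The control group was made of male littermates that did not undergo it. DNA of 10 animals per group was pooled into 3 control and 3 MMS samples, so each library mixes several animals. In methylated DNA immunoprecipitation (meDIP) an antibody against methylated cytosine pulls down DNA fragments, and the sequencing reads over a region increase with its methylation and its number of CpG sites. In addition, 1 pooled input per group and 1 IgG control entered the processing done by the authors.

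Receptors of this family bind DNA through a zinc-finger domain that reads short half-sites. Glucocorticoid, mineralocorticoid and progesterone receptors recognise copies of AGAACA, and estrogen receptors and most others recognise AGGTCA, singly or as repeats. The glucocorticoid and mineralocorticoid receptors carry the feedback of adrenal steroids on the stress axis. In the hypothalamus the estrogen receptors act in reproductive and metabolic circuits. Thyroid hormone and retinoid receptors time neural maturation, and the REV-ERB and ROR receptors belong to the circadian clock. Because intact hypothalamus holds many cell types, a change of methylation within cells and a change in the mix of cells cannot be told apart.

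Every value below is a group mean given by the authors, the log2 of normalised reads over a region in control or in MMS. The table held no value per library, so the spread between pools could not be computed, the depth behind single values is unknown, and no test between the groups was made. Each listed region had already been called as different by the authors. A gene with no listed region may have had no region tested or a region that was not called, and these cannot be told apart. The lowest value was -0.17 for a control mean and -0.24 for an MMS mean, and a difference against a group at its lowest value depends on where that value was set.

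Receptor genes held a DMR in 17 of 45 cases (37.8%), where 29.9% of the 20807 autosomal protein-coding genes did. The share went with gene length. All 6 receptor genes over 300 kb (Rora, Esrrg, Esr1, Rarb, Thrb and Nr3c2) had a DMR, and in this length class 83.7% of all genes did. Between 100 and 300 kb, 3 of 7 receptor genes had one, beside 64.3% of all genes. For 30 to 100 kb the count was 6 of 15, beside 39.6%, and for 10 to 30 kb it was 2 of 11, beside 24.3%. None of the 6 receptor genes under 10 kb had a DMR, beside 15.4%. The median length was 117.9 kb for receptor genes with a DMR and 25.1 kb for those without. With each receptor gene given the share of its own length class, the mean share was 42.4%, above the 37.8% counted. Of the 38 DMRs, 28 belonged to the 13 receptor genes of 100 kb and more. The mean number of DMRs per gene over 300 kb was 3.83 for receptor genes and 2.73 for all genes. In the shorter classes, from 100 to 300 kb downwards, it was 0.71 beside 1.23, 0.47 beside 0.55, 0.27 beside 0.29 and 0 beside 0.17.

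**Figure D1:**
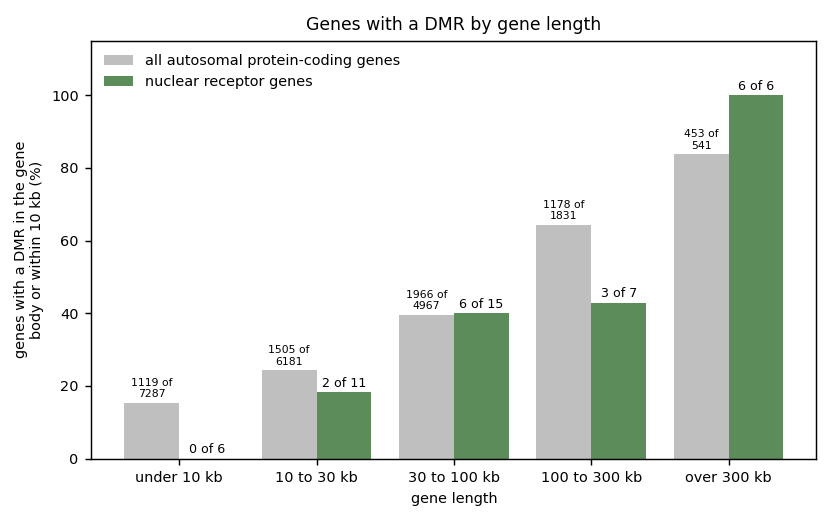
Share of genes (vertical axis, %) with a DMR in the gene body or within 10 kb, by gene length (horizontal axis), for all autosomal protein-coding genes (grey) and the nuclear receptor genes (green), with the counts above each bar. The share climbed with length in both sets, from 0 of 6 to 6 of 6 among receptor genes.

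MMS had the higher mean in 24 of the 38 DMRs and control in 14. The share of 63.2% (exact binomial 95% interval 46.0% to 78.2%, counting error only) stood beside 62.6% of all listed DMRs. The median difference, MMS minus control, was 3.73 in receptor DMRs higher in MMS and -1.84 in those higher in control, beside 3.43 and -1.73 over all listed DMRs. Control lay within 0.5 of its lowest value in 14 of the 24 DMRs higher in MMS (58.3%, beside 52.7% of all). Over both directions, 34.7% of listed DMRs had the lower group within 0.5 of its lowest value. MMS did so in 0 of the 14 higher in control, beside 4.6% of all, and 0 of 14 allows a share of up to 21.4% when 3 counts are taken as the limit of a count of 0. With these regions left out, 10 of 24 receptor DMRs (41.7%) were higher in MMS, beside 45.3% of all listed DMRs left by the same step. With a log2 difference of at least 2 required, 11 of the 45 receptor genes had a DMR, beside 22.6% of autosomal protein-coding genes. Of the 17 genes, 6 had DMRs higher in MMS alone, 6 had DMRs higher in control alone and 5 had both. Among all 6221 autosomal protein-coding genes with a DMR the shares were 53.2%, 29.7% and 17.1% in that order, and these depend on the number of DMRs per gene, since the 8 receptor genes with 1 DMR cannot have both.

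**Figure D2:**
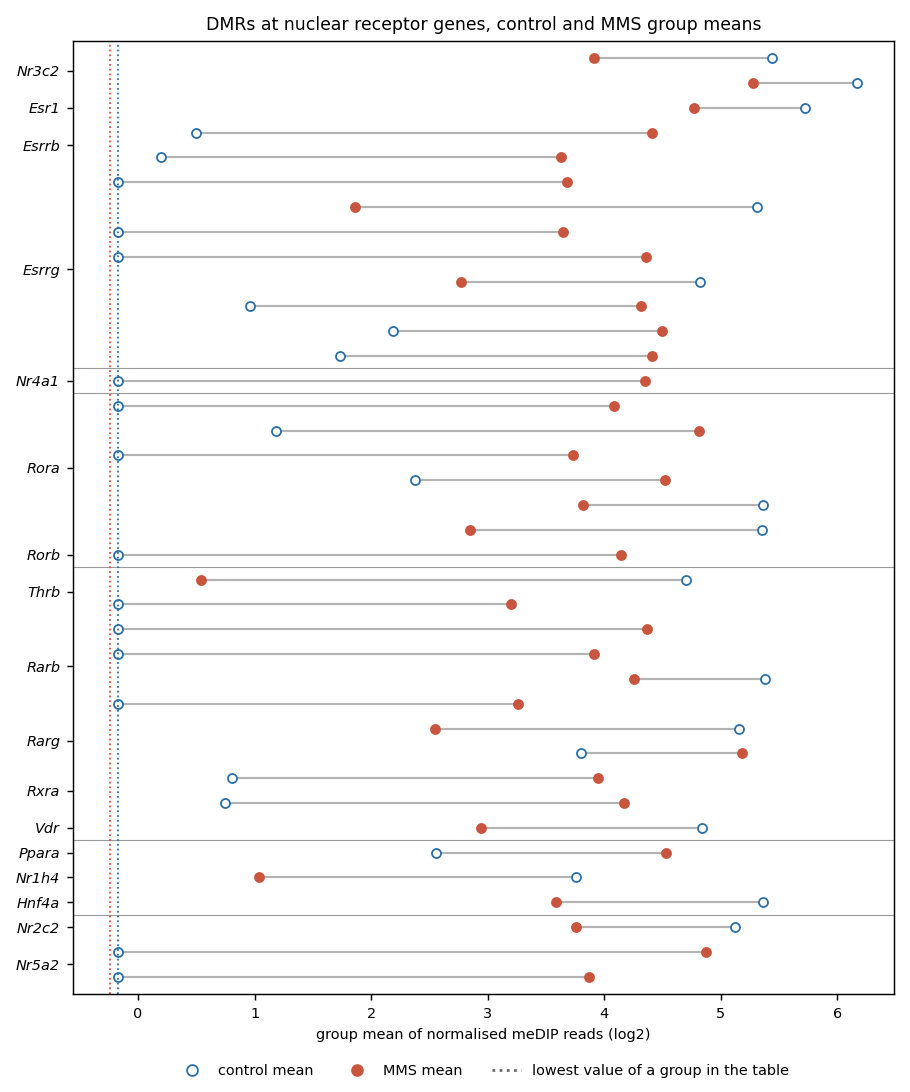
Group means of the 38 DMRs at nuclear receptor genes (horizontal axis, log2 normalised reads), 1 row per DMR, grouped by gene and ordered along the chromosome, with control as open and MMS as filled circles; lines across divide the groups of receptors, and dotted lines mark the lowest value of each group in the table. Control sits at -0.17 in 13 rows, while no MMS mean reaches -0.24.

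Steroid and estrogen-related receptors had DMRs in 4 of 8 genes, where 60.4% of all genes did at the same length classes. Of their 13 DMRs, 8 were higher in MMS and 5 in control, beside 62.6% higher in MMS over all listed DMRs. Nr3c2 encodes the mineralocorticoid receptor, which binds corticosterone with high affinity. Its DMRs were both higher in control. The first, in intron 2 of 8 (chr8:77083302-77083547), had a control mean of 5.44 and an MMS mean of 3.91. The second, in intron 3 (chr8:77126702-77128063), was the widest of the 38 at 1362 bp and had a control mean of 6.17 and an MMS mean of 5.28. These are linear folds of 2.89 and 1.85, and the second pair of means was the highest of all receptor DMRs in control and in MMS. The centre of the second region lay at -0.63 kb from a transcript start inside the gene, where a negative sign means upstream.

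The same Nr3c2 region ended in a tandem array. It held 8 matches of the half-site AGAACA on either strand, more than any other receptor DMR, and 9 of all 12949 listed DMRs (0.0695%) had as many or more. The starts of the matches lay 30 or 60 bases apart. The last 300 bases of the region follow on the plus strand, with AGAACA in capitals, and all 8 matches lie in it, in the same orientation.
Nr3c2 chr8:77127764-77128063: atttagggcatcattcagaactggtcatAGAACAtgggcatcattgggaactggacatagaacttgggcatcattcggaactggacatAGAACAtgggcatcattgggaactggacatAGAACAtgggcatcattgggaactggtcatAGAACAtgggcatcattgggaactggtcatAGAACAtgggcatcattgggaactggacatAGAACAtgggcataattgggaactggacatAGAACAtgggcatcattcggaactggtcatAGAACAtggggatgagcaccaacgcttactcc
At 95% identity over at least 100 bp the region had 0 alignments elsewhere in the reference.

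The glucocorticoid receptor gene Nr3c1, which carries the other arm of corticosteroid feedback, had no listed DMR in its 108.9 kb or within 10 kb. Its nearest listed region lay 75.4 kb away, with a control mean of 5.66 and an MMS mean of 4.51. The progesterone receptor gene Pgr, the estrogen receptor gene Esr2 and the estrogen-related receptor gene Esrra also had none, with their nearest regions 91.4, 49.0 and 60.6 kb away.

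Esr1 encodes estrogen receptor alpha, the main estrogen receptor of the mediobasal hypothalamus. Its 394.0 kb held 1 DMR, in intron 2 of 9 (chr10:4686015-4687002), with a control mean of 5.72 and an MMS mean of 4.77. The difference of -0.95 (1.93-fold) was among the smallest of the 38, next to the -0.89 of the second Nr3c2 region. It was also 1 of 2 receptor DMRs that held AAAGGTCA, an AGGTCA half-site with a pair of A before it, which the NR4A receptors bind as monomers. The 81 bases around it follow on the plus strand, with the match in capitals.
Esr1 chr10:4686707-4686787: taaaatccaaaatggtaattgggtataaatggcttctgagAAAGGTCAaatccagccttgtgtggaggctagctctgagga

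Estrogen-related receptors resemble estrogen receptors in sequence but do not bind estrogen, and they drive genes of mitochondrial metabolism. Esrrg, expressed in neurons, had the most DMRs of any receptor gene, 8 in 606.1 kb, or 1.28 per 100 kb of gene and flanks. Of these, 6 were higher in MMS and 2 in control. In order along the gene, the first lay outside it, centred at -1.67 kb from the start (chr1:187606781-187607468), with control at -0.17 and MMS at 3.68. It was rich in CpG, with 27 sites in 688 bp. The next, 22.6 kb into the gene, went the other way, from a control mean of 5.31 to an MMS mean of 1.86. Then came 2 with control at -0.17 and MMS at 3.65 and 4.36. A second region higher in control followed, 318.4 kb into the gene, with means of 4.82 and 2.77. The last 3 regions had control means of 0.96, 2.19 and 1.73 and MMS means of 4.32, 4.50 and 4.41. So MMS means of the 6 regions higher in MMS were close to each other, while control means ran from the lowest value to 2.19. Direction changed 4 times between neighbours along Esrrg. Over all receptor genes, 9 of 21 pairs of neighbours went in opposite directions, and this share was not computed over all listed DMRs.

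Esrrb, known for its part in stem cell self-renewal, had 2 DMRs, both higher in MMS. In intron 2 of 6 (chr12:86481948-86483136) control was 0.50 and MMS 4.41, and in intron 5 (chr12:86511648-86511942) control was 0.20 and MMS 3.63. The first had 50 alignments elsewhere in the reference of at least 100 bp and 95% identity, the longest 160 bp of its 1189 bp.

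NR4A receptors are immediate early genes of neurons that respond to activity within minutes to hours and act without a ligand. Of the 3 genes, Nr4a1 had a DMR, where 29.4% of all genes did at the same length classes. It covered 1318 bp of intron 2 of 7 (chr15:101266984-101268301), its centre 0.80 kb downstream of a transcript start of the gene, with control at -0.17 and MMS at 4.35. It had 34 CpG sites, the most of any receptor DMR. The 300 bases at its centre are shown on the plus strand, with CpG in capitals, since this is the region of an activity-regulated receptor gene.
Nr4a1 chr15:101267493-101267792: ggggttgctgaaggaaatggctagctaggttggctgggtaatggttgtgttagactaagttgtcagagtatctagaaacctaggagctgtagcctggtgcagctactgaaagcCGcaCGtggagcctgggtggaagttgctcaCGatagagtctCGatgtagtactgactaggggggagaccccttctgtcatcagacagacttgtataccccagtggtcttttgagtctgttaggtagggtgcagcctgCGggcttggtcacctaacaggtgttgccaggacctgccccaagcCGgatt
Nr4a2 and Nr4a3 had no DMR within 10 kb. The nearest region to Nr4a2 lay just outside the limit, 10.6 kb downstream, with control at -0.17 and MMS at 4.05. For Nr4a3 the nearest lay 280.9 kb away, the farthest for any of the 45 genes.

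Clock receptors feed back on the core clock gene Bmal1, which ROR receptors activate and REV-ERB receptors repress through the same AGGTCA element. The ROR genes had 7 DMRs and the REV-ERB genes Nr1d1 and Nr1d2 none, their nearest regions being 53.8 and 77.9 kb away. Over these 4 genes the share of all genes at the same length classes was 50.8%, and the pairs differ in length: Rora and Rorb span 734.5 and 180.6 kb, Nr1d1 and Nr1d2 7.40 and 35.1 kb. Rora, also needed for cerebellar Purkinje cells, is the longest member and had 6 DMRs, all in its first intron. The 4 closest to the gene start were higher in MMS and the 2 farther along were higher in control. In order, control means were -0.17, 1.18, -0.17 and 2.38 and MMS means 4.08, 4.81, 3.73 and 4.52 in the first 4. In the last 2, control means were 5.36 and 5.35 and MMS means 3.82 and 2.85. The switch fell between 289.6 and 324.5 kb from the start of the gene. Rorb, expressed in sensory cortex and retina, had 1 intronic DMR (chr19:19004963-19005651), with control at -0.17 and MMS at 4.14.

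**Figure D3:**
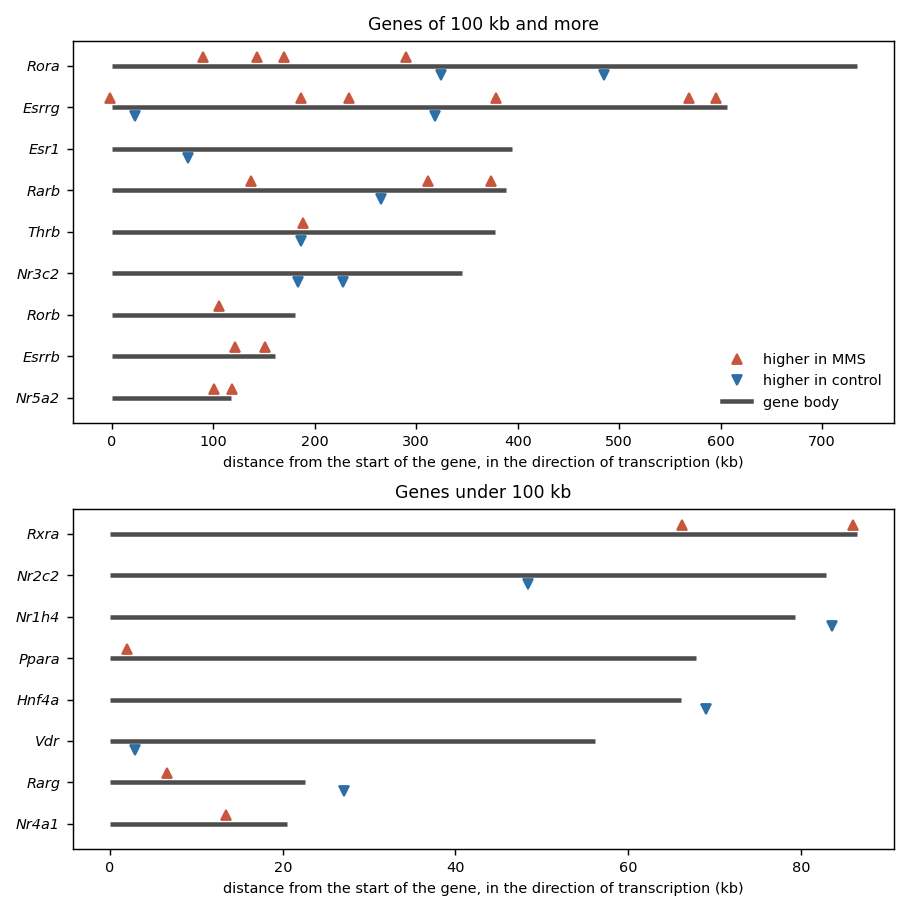
Position of each DMR (triangles) along the 17 receptor genes with a DMR (bars), in kb from the start of the gene in the direction of transcription (horizontal axis), for genes of 100 kb and more (top) and under 100 kb (bottom). Up-pointing triangles are higher in MMS and down-pointing ones higher in control, and both directions occur along Esrrg, in which the last 3 DMRs are higher in MMS, and along Rora, in which the last 2 are higher in control.

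Thyroid hormone, retinoid and vitamin D receptors had DMRs in 5 of 9 genes, where 43.3% of all genes did at the same length classes. Of their 11 DMRs, 7 were higher in MMS and 4 in control, beside the 62.6% of all listed DMRs. Thrb encodes thyroid hormone receptor beta, which mediates thyroid feedback on hypothalamic TRH neurons. Its DMRs lay in intron 2 of 9, 1721 bp apart, and went in opposite directions, the closest pair of DMRs in any receptor gene. The first (chr14:17846292-17846464) had a control mean of 4.70 and an MMS mean of 0.54, and its difference of -4.16 was the largest in favour of control among the 38. The second (chr14:17848186-17848414) had control at -0.17 and MMS at 3.20. Both are shown whole on the plus strand, with CpG in capitals, as neighbours of opposite direction.
Thrb chr14:17846292-17846464: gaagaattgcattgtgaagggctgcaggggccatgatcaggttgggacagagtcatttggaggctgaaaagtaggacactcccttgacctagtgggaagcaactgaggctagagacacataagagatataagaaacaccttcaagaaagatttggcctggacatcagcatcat
Thrb chr14:17848186-17848414: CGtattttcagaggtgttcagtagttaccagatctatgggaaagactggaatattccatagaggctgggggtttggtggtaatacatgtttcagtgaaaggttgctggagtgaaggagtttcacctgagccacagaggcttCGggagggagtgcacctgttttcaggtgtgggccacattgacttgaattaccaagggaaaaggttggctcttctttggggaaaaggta
The first is the receptor DMR with 0 CpG sites, and the second has 2 in 229 bp. Both are free of soft-masked repeat. Thra, which encodes the more widespread thyroid hormone receptor alpha and overlaps the end of Nr1d1 on the other strand, had none, its nearest region being 60.1 kb away.

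Among the retinoic acid receptors, Rarb and Rarg had DMRs and Rara had none. Rarb, itself induced by retinoic acid, had 4 DMRs in 388.3 kb. On the transcribed strand the first (chr14:16681561-16681738) had control at -0.17 and MMS at 3.26. The second (chr14:16553315-16554047) was higher in control, at 5.38 against 4.26. The other two, chr14:16507354-16507590 and chr14:16445239-16445753, had control at -0.17 and MMS at 3.91 and 4.37. The one with MMS at 3.91 is repeat over 100% of its length but had 0 alignments elsewhere at the limits used, and the one higher in control had 17, the longest 125 bp of its 733 bp.

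Rarg, a short gene of 22.6 kb, had 2 DMRs, or 4.70 per 100 kb of gene and flanks, the highest density of the 45 genes. In intron 3 of 9 (chr15:102250456-102251365) the mean was 3.80 in control and 5.18 in MMS, a linear fold of 2.60. Its centre lay at -0.56 kb from a transcript start of Rarg, and it was the only receptor DMR with 3 AGGTCA half-sites, 1 of them in the AAAGGTCA form. The central 300 bases follow on the plus strand with CpG in capitals, as a region at a receptor's own start.
Rarg chr15:102250761-102251060: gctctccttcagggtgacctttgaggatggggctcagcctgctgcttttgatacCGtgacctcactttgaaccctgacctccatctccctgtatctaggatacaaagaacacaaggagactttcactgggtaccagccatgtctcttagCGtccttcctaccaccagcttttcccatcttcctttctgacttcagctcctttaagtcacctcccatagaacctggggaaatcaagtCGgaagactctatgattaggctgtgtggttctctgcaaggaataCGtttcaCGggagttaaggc
Around the AAAGGTCA match, which lies on the minus strand and so reads as its reverse complement here (capitals), the 81 bases are as follows.
Rarg chr15:102250735-102250815: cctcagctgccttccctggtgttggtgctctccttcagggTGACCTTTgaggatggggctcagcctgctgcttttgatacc
The other Rarg region (chr15:102230202-102230748) lay 4.19 kb past the end of the gene, inside the integrin gene Itgb7, and was higher in control, at 5.16 against 2.55.

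Retinoid X receptors are the common partners with which thyroid, retinoid, vitamin D and lipid receptors bind DNA. Rxra had 2 DMRs, both higher in MMS. An intronic one (chr2:27742419-27743037) had control at 0.81 and MMS at 3.95, with 2 CpG sites in 619 bp. The other, over an exon at the 3′ end of the gene (chr2:27761907-27763016), had control at 0.75 and MMS at 4.17, with 33 CpG sites in 1110 bp. This was the only receptor DMR with its centre in an exon and outside a promoter. Rxrb and Rxrg had none. Vdr, the vitamin D receptor, had 1 DMR in intron 1 (chr15:97907497-97907928), 0.60 kb downstream of a transcript start, with control at 4.84 and MMS at 2.94 (3.73-fold).

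Lipid and xenobiotic sensors had a DMR in 3 of 10 genes, 1 each, where 38.2% of all genes did at the same length classes. Ppara encodes the fatty acid sensor of the fasting response. Its DMR in intron 2 (chr15:85736776-85737156), 0.84 kb downstream of a transcript start, had control at 2.56 and MMS at 4.53 (3.92-fold). This Ppara region also touched an exon of a coding transcript of the gene. The other two lay beyond the ends of their genes and were higher in control. Nr1h4, the bile acid receptor FXR, had one 4.12 kb past its end (chr10:89449816-89450113), at 3.76 in control and 1.04 in MMS. Hnf4a, a receptor of liver and gut epithelium, had one 2.62 kb past its end (chr2:163575533-163576233), at 5.36 in control and 3.59 in MMS. The Hnf4a region had 1374 alignments elsewhere of at least 100 bp and 95% identity, the longest 194 bp of its 701 bp, by far the most of the 38. Pparg, Ppard, Nr1h2, Nr1h3, Nr1i2, Nr1i3 and Hnf4g had none.

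Orphan developmental receptors had a DMR in 2 of 11 genes, with 3 DMRs, where 32.8% of all genes had one at the same length classes. Nr2c2, the testicular receptor 4, had 1 in 171 bp at chr6:92139691-92139861, with control at 5.12 and MMS at 3.76 (2.57-fold). It had the most CpG per length of all receptor DMRs, 4.09 per 100 bp, and its centre lay at -0.02 kb from a transcript start in intron 2 of the transcript with most exons. The same centre fell in an exon of another Nr2c2 transcript. The 89 bases of it that are not annotated as UTR follow on the plus strand, with CpG in capitals.
Nr2c2 chr6:92139691-92139779: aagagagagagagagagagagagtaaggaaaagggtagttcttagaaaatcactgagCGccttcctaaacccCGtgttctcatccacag
Nr5a2 encodes LRH-1, a phospholipid-binding relative of steroidogenic factor 1. It had 2 DMRs with control at -0.17. The one in intron 8 (chr1:136859547-136860487) had an MMS mean of 3.87. The other, 0.92 kb past the end of the gene (chr1:136841362-136841651), had an MMS mean of 4.87, and its difference of 5.04 was the largest of the 38. It is shown whole on the plus strand, with its CpG sites in capitals.
Nr5a2 chr1:136841362-136841651: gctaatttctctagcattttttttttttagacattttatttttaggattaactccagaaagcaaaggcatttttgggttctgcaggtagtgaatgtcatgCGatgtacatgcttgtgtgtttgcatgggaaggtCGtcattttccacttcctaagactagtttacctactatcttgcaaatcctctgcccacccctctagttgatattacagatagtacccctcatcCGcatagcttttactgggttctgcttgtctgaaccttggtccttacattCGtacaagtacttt
Its 4 CpG sites in 290 bp give 1.38 per 100 bp, close to the median of all receptor DMRs. Nr5a1, the steroidogenic factor 1 of the ventromedial hypothalamus, had no region nearer than 226.0 kb. Nr2c1, Nr2e1, Nr2e3, Nr2f1, Nr2f2, Nr2f6, Nr6a1 and Nr0b2 had none either.

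By their centres, 30 of the 38 DMRs lay in introns, 3 in promoters (1000 bp upstream to 100 bp downstream of a transcript start), 1 in an exon and 4 outside genes. Over all listed DMRs the shares were 47.7% in introns, 4.10% in promoters, 5.71% in exons and 42.5% outside genes, and the rule for members itself favours gene bodies. The 10 kb flanks gave 5 of the 38, and the 2 nearest to the limit were those of Rarg and Nr1h4, 4.19 and 4.12 kb from the gene. Just beyond it lay the Nr4a2 region, 1 that was 11.1 kb upstream of Rxra (5.02 in control, 2.70 in MMS) and 1 that was 11.7 kb upstream of Nr2e1 (3.93 and 5.52). Within 50 kb, 29 of the 45 receptor genes had a DMR, beside 57.1% of autosomal protein-coding genes. Centres within 1 kb of a transcript start of the same gene were found for 6 receptor DMRs (Nr3c2, Nr4a1, Rarg, Vdr, Ppara and Nr2c2), 3 higher in MMS and 3 in control. This was 15.8% of the 38, and among the 7772 DMRs at autosomal protein-coding genes the share, by the same rule, was 7.99%. Of the 6, 1 had control at its lowest value, that of Nr4a1. Median CpG density was 2.56 per 100 bp in these 6 and 1.32 in the other 32, beside 1.76 and 1.39 over the DMRs at protein-coding genes. RefSeq promoters (GRCm38.p6, a short window around each gene start), present for 41 of the 45 genes, were touched by 0 of the 38 DMRs. The share of all listed DMRs that touch such a promoter was not computed, so whether 0 is unusual cannot be told.

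Receptor DMRs were 159 to 1362 bp wide, with a median of 516 bp, beside 544 bp over all listed DMRs. Their median CpG density was 1.39 per 100 bp, beside 1.32, and their median GC content 46.4%, beside 47.4%. Soft-masked repeat made up a median of 12.1% of their length, beside 20.6%, and exceeded 50% in 3 of 38 (7.89%), beside 17.4%. Over the DMRs at autosomal protein-coding genes, a closer reference, the median CpG density was 1.41 per 100 bp and the median repeat share 17.8%. Repeat exceeded 50% in 13.2% of those. Alignments elsewhere in the reference of at least 100 bp and 95% identity were found for 3 of the 38, at Esrrb, Rarb and Hnf4a.

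Searched on both strands, AGGTCA was present in 12 of 38 receptor DMRs (31.6%), and listed DMRs of the same widths held it in 29.9%. AGAACA was present in 16 (42.1%), beside 39.4%. Per kb there were 1.39 AGAACA matches, beside 0.989 over all listed DMRs, and 1.09 with the whole Nr3c2 region that holds the array left out. AAAGGTCA, which contains AGGTCA, was in 2 of 38 (5.26%), beside 2.90%. Direct repeats of AGGTCA with a spacer of 1, 2, 4 or 5 bases, and inverted repeats of AGGTCA or AGAACA with a spacer of 3, were found in 0 of the 38. Over all 12949 listed DMRs these were in 0.193%, 0.0077%, 0.0309%, 0.0309%, 0.0077% and 0% in that order.

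**Figure D4:**
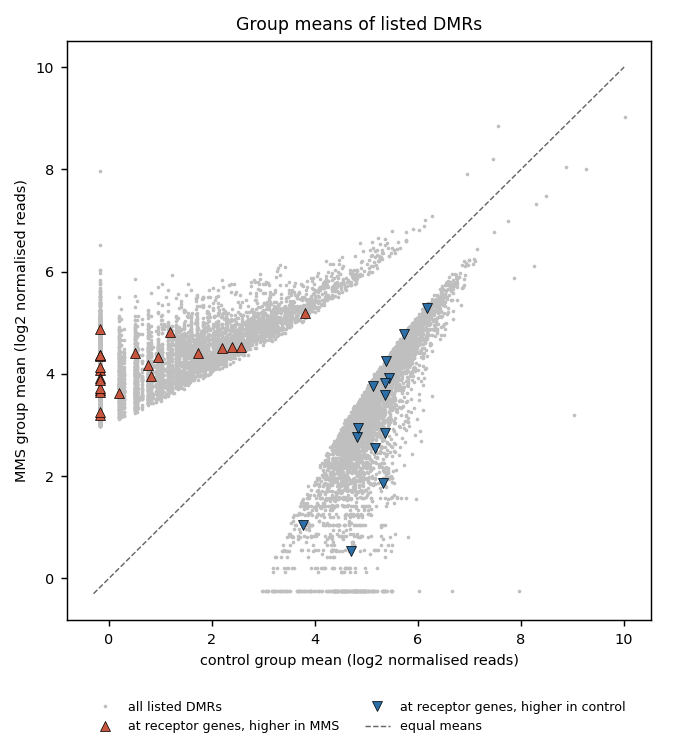
Control mean (horizontal axis) and MMS mean (vertical axis), both log2 of normalised reads, for all 12949 listed DMRs (grey) and the 38 at nuclear receptor genes (triangles), with equal means as a dashed line. Receptor DMRs lie within the cloud of the others on both sides, with 13 at the lowest control mean of -0.17.

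Genes that serve the receptors were taken from a list of 51 coregulators, chaperones and enzymes or carriers of their ligands. A DMR was found for 24 of the 51 (47.1%), beside 29.9% of all autosomal protein-coding genes. By length, it was 3 of 8 under 10 kb (15.4% of all genes), 3 of 13 from 10 to 30 kb (24.3%), 9 of 16 from 30 to 100 kb (39.6%) and 9 of 14 from 100 to 300 kb (64.3%). Of their 39 DMRs, 27 were higher in MMS and 12 in control, beside 62.6% higher in MMS over all listed DMRs. Coregulators had a DMR in 11 of 22 genes, ligand-handling genes in 10 of 22 and chaperones in 3 of 7. Median gene lengths were 94.4, 23.1 and 12.1 kb in that order. Most coregulator genes were 30 to 300 kb long, where 39.6% (to 100 kb) and 64.3% (above it) of all genes had a DMR. The share of all genes at the same length classes was not computed for each list. The 3 counts therefore cannot be read as an excess over the 29.9%. The most DMRs were 3 each, in Sirt1, Aldh1a3, Cyp19a1 and Dhrs3. Sirt1, a deacetylase that acts on several receptors, had control at -0.17 and MMS at 4.08 and 3.00 in 2 of its regions, and 5.62 and 3.68 in the other one. The Sirt1 region with MMS at 3.00 lay outside the gene, in its 10 kb flank. Dhrs3, which turns retinal back to retinol, had all 3 higher in MMS, with MMS means of 4.39, 5.08 and 3.55, the last of them in the flank of the gene. Aldh1a3, a retinoic acid synthase, had 2 higher in MMS, at control means of 0.75 and -0.17 and MMS means of 4.22 and 4.18, and 1 higher in control, at 5.78 against 4.26. Only the Aldh1a3 region with MMS at 4.18 lay in the gene body, and the others lay in its flank.

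Cyp19a1 encodes aromatase, which makes estrogen from androgen in hypothalamic neurons. One of its regions (chr9:54217663-54217889) had a control mean of 4.88 and MMS at its lowest value of -0.24. Its other regions were higher in MMS, at control means of 2.60 and 0.20 and MMS means of 4.66 and 4.35, the latter in the flank of the gene. The genes that follow were chosen after their values were seen. Among chaperones of the steroid receptors, Fkbp5 had 1 DMR in each direction (4.71 in control and -0.24 in MMS, then -0.17 and 3.40), as had Hsp90ab1 (1.35 and 4.70, then 4.62 and 2.89). The first Fkbp5 region and the second Hsp90ab1 region lay outside the genes, in their 10 kb flanks. The coactivators Ncoa1, with 1 DMR, and Ncoa2, with 2, differed in direction: 5.38 in control and 4.18 in MMS for Ncoa1, against -0.17 and 4.94, and 2.41 and 4.52, for Ncoa2. The Ncoa2 region with MMS at 4.94 lay in the flank of the gene.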

How the data were processed

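Per the study's methods, the authors used Torrent Suite for alignment (mm10), MACS2 (2.1 in the submitters' processing notes) for broad peaks over inputs with a human genome size setting, and DiffBind with DESeq2 and edgeR to compare 3 control with 3 MMS pooled libraries, normalised to 1 pooled input per group with an IgG control subtracted. The deposited values used here are log2 means of normalised reads per group; the columns named untreated and treated were read as control and MMS. The deposited fold change, p-value and FDR, the authors' own comparison, were not used. Differences were computed as MMS minus control. Regions were assigned to GENCODE M21 genes by overlap of at least 1 bp within 10 kb, and features by their centres. All coordinates lay within GRCm38 chromosomes. Intron numbers refer to the coding transcript with the most exons. Sequence, CpG and soft-masked shares came from GRCm38.p6, and alignments from BLAST 2.17.0 at 100 bp and 95% identity. Assignment was tested on simulated regions. Python 3.11.15, pandas 2.3.3, numpy 2.4.6, scipy 1.17.1 and pysam 0.24.0 were used. Depth per library is not given in the table. Every receptor gene is named. Sequences follow a rule (largest difference in each direction, promoters, densest CpG), with the second Thrb and second Rarg sequence and those of Nr4a1, Esr1 and the Nr3c2 array added after their values were seen; 1 sequence under the rule is not reported here. Members and lists were chosen with earlier results of these data known. Alternatives were other windows, a minimum difference or width, other gene models and other limits for the lowest value.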

Additional observations from a re-analysis of the deposited data

How the results depend on the processing

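With 50 kb on each side in place of 10 kb, 29 receptor genes and 73 DMRs were counted, 26 DMRs had the lower group within 0.5 of its lowest value, and 38 of the 51 other genes had a DMR, beside 57.1% of all autosomal protein-coding genes in this window. A log2 difference of at least 2 left 11 of 45 receptor genes, beside 22.6% of all autosomal protein-coding genes, with 78.6% of DMRs higher in MMS, beside 80.6% of all listed DMRs under the same limit. A width of at least 300 bp left 23 DMRs, 6 of them with the lower group within 0.5 of its lowest value. Without regions whose lower group was within 0.5 of its lowest value, an alternative chosen after seeing the data, 24 receptor DMRs were left, 41.7% were higher in MMS, and the median difference of those higher in MMS was 2.91. The gene body alone, the centre of the region and the span of coding transcripts moved no count by over 1.5 times and no share or median out of its interval. The largest change among these was at that limit: with the gene body alone, 16 of the 51 other genes had a DMR in place of 24. The share of all autosomal protein-coding genes was not computed for the gene body alone. No paired analysis was possible because the table holds group means and no value per library, and for the same reason no replicate could be left out. The pooled libraries and the lack of a value per library limit every difference given.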

Other observations

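Beyond the 10 kb limit, 35 further DMRs lay 10 to 50 kb from a receptor gene, 20 higher in MMS and 15 in control (62.6% of all listed DMRs were higher in MMS), and 12 of the 28 receptor genes without a DMR had one there, beside 38.7% of the autosomal protein-coding genes without a DMR within 10 kb. Nr2c1, the testicular receptor 2, had the most, with 5. Upstream, inside Fgd6, 2 were higher in control, at control means of 4.99 and 6.21 and MMS means of 2.37 and 4.86. Downstream, 2 were higher in MMS, at control means of 1.22 and 1.36 and MMS means of 4.57 and 4.82, and 1 was higher in control, at 4.99 and 3.12. Rara had 2 inside the neighbouring gene Wipf2, both with control at -0.17, at MMS means of 4.52 and 5.05. Nr2e1, a receptor of neural stem cells, had 2 inside Ostm1, at 3.93 in control and 5.52 in MMS and at -0.17 and 3.88, and 1 on its other side, at 5.29 and 3.95. Nr1h2, the liver X receptor beta, had 1 on each side, at -0.17 in control and 4.73 in MMS and at 4.40 and 2.29. Several of these regions lie in other genes, and none was counted for the receptors.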
